A study of Homo sapiens with 8 samples.

Results

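The 36 genes described here encode proteins with which cells hold on to their neighbours. They comprise 8 cadherins, 5 catenins, 4 nectins with their relative *PVR* and their linker *AFDN*, *TJP1* with 3 junctional adhesion molecules (JAMs), 3 cell adhesion molecules of the CADM family, 4 other immunoglobulin adhesion molecules, 4 desmosomal genes and 2 junction linkers. They were chosen by symbol, with earlier results of these data known, from the 58051 genes that were counted, and 30 of the 36 had enough reads to be tested. RNA came from A375, a human melanoma cell line, as 4 wild-type lines named WT1 to WT4, each grown up from a single cell and thus 1 clone. All lines had been grown in DMEM with fetal bovine serum (FBS), were rinsed, and then spent 12 h in DMEM that contained 10% FBS or in DMEM that lacked it. This gave 1 library per line and condition, or 4 libraries with serum and 4 without. The labels name no repeat culture of a line, so errors and p-values between conditions describe the spread between these clones. Where a fit compares each line with itself, they describe how the difference between conditions varied over the clones. In the test between lines, the 2 libraries of a line stand for its spread. The comparison asks how transcript levels respond when serum is withdrawn, in a study whose interest was in adherens junctions.

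Adherens junctions are built from transmembrane cadherins, whose tails bind p120-catenin (*CTNND1*) and β-catenin (*CTNNB1*) or its relative plakoglobin (*JUP*), with α-catenin (*CTNNA1*) joining this complex to actin. Nectins are immunoglobulin-like receptors that pair across the cell border in a calcium-independent way, bind afadin (*AFDN*) inside the cell, and act together with cadherins while a junction forms. Melanocytes adhere to keratinocytes through E-cadherin (*CDH1*), and melanoma cells commonly carry N-cadherin (*CDH2*) in its place, together with adhesion molecules such as MCAM, ALCAM and L1CAM.

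Between 29759279 and 73341551 reads were counted on genes in each library. Reads that aligned to several places were not counted, and they made up 22.7% of the recorded reads in the serum library of WT1 and 16.8% in that of WT2, against at most 10.1% in the other libraries. These 2 libraries stood apart in this respect, and the 5 calls of the comparison by condition are therefore also given without them. Of 8 melanocyte and melanoma markers, *AXL* (60.1 to 128 RPKM), *S100B* (7.51 to 19.3) and *MITF* (4.06 to 5.95) were expressed, whereas *PMEL*, *MLANA* and *DCT* reached at most 0.480 RPKM and *SOX10*, a gene of the melanocyte lineage, was listed at 0 in every library. Another annotated gene, *POLR2F*, shares 5.39% of the exon bases of *SOX10*, and whether the 0 reflects the cells or the counting was not tested. RPKM values here are reads relative to exon length and to the size of the library. Among markers of other cells, *KRT10* (14.7 to 22.0 RPKM) and *KRT14* (5.13 to 9.31) of 5 keratinocyte and epithelial genes were expressed, with *KRT1* at 0 and *EPCAM* and *KRT5* at most at 0.310, and the list summed to 25.0 to 29.4 RPKM with serum and 19.9 to 25.4 without. Of 6 fibroblast genes *LUM* was the highest (0.946 to 2.66 RPKM), and the list summed to 1.57 to 2.99 and 1.68 to 2.35. Of 3 matched endothelial genes *KDR* was the highest (1.97 to 7.17 RPKM), and the list summed to 2.02 to 6.59 and 2.90 to 7.43. Of 7 lymphocyte genes *CD96* was at 29.5 to 42.7 RPKM and the other 6, *PTPRC*, *CD3D* and *CD3E* included, at 0.0815 at most. *PDGFRA*, a fibroblast marker, rose without serum (0.0514 to 0.0996 RPKM and 0.145 to 0.422, log2 fold change 1.77, edgeR's adjusted p = 0.00767), and *KRT10* (-0.31, edgeR's adjusted p = 0.0253) and *MITF* (-0.28, edgeR's adjusted p = 0.0496) fell. With the line as a block (explained below) *S100B*, *DCN* and *KDR* also rose and *AXL*, *DCT*, *CD96* and *CD226* fell. The part of these markers in the results below was not tested. RNA was measured in bulk, so fewer cells that carry a transcript and less of it per cell cannot be told apart.

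Promoter sequence is shown for the 4 changed genes that could be matched (*PVR*, *MCAM*, *CADM4* and *JUP*) and, for comparison, for *CDH2*, which did not pass, because these letters are the stretch next to the starts of the transcripts whose levels are compared below. RefSeq promoters (GRCh38.p14) were found for 22 of the 36 genes, and *NECTIN1* was not among them. Each line gives the 250 bases before the RefSeq start, 5′ to 3′ on the strand of the gene: *PVR* at chr19:44643660-44643909 (+ strand), *MCAM* at chr11:119317131-119317380 (− strand), *CADM4* at chr19:43639851-43640100 (− strand, inside the RefSeq span of the gene), *JUP* at chr17:41786712-41786961 (− strand) and *CDH2* at chr18:28177131-28177380 (− strand). Capitals mark matches on either strand to 4 short motifs: a forkhead motif (TGTTTAC), the E2-box (CACCTG), an AP-1 motif (TGANTCA) and the GC-box (GGGCGG).
PVR: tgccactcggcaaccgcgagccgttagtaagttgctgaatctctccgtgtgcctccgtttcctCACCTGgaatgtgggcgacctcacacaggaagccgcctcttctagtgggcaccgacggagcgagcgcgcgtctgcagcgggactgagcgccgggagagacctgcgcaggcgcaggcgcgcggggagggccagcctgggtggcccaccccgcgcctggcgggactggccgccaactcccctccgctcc
MCAM: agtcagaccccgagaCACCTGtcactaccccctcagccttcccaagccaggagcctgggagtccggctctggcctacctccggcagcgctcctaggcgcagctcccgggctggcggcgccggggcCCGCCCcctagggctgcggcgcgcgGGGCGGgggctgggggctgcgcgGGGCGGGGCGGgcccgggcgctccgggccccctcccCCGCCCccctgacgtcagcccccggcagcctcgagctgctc
CADM4: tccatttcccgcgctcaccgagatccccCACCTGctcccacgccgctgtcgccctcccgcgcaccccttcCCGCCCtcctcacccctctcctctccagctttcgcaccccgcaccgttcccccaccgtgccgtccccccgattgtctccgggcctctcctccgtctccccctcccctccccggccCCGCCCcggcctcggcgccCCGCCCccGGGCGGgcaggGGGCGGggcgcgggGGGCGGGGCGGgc
JUP: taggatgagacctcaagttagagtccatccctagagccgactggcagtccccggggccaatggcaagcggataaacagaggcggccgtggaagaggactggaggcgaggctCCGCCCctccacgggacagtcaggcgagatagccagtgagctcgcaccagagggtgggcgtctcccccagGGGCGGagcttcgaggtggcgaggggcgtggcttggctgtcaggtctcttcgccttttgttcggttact
CDH2: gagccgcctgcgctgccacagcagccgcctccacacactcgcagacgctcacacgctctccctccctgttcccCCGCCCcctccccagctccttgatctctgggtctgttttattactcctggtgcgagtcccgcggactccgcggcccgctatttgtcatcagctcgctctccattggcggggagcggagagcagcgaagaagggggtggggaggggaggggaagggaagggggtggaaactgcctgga

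The E2-box letters, known as a target of SNAIL and ZEB repressors, occurred once in each of the *PVR*, *MCAM* and *CADM4* windows and not in those of *JUP* and *CDH2*. Across all genes, 17.5% of 27305 RefSeq windows of this length held an E2-box, as did 10 of the 22 windows of junction genes (*AFDN*, *ALCAM*, *CADM4*, *CDH4*, *DSG2*, *DSP*, *MCAM*, *NECTIN4*, *PVR* and *TJP1*). GC-box letters occurred in 42.2% of all windows and in 17 of the 22, with 5 matches in *MCAM*, 7 in *CADM4*, 2 in *JUP*, 1 in *CDH2* and none in *PVR*. These matches overlap one another where GC-boxes follow in tandem. The forkhead motif was in 3.01% and the AP-1 motif in 6.57% of all windows, and neither was in any of the 22. The 5 windows shown had a GC content of 63.6% to 79.6%, and the median of all windows was 57.6%. A match is a description of these letters and not evidence of binding.

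Junction transcripts spanned a wide range of levels in A375 cells. The catenins *CTNNA1* (66.6 to 91.3 RPKM) and *CTNNB1* (46.8 to 52.8) and the adhesion molecule *CADM4* (48.6 to 77.9) were the highest in all 8 libraries, and 20 genes stayed above 1 RPKM in every library. For comparison, the median tested gene was at 2.75 RPKM with serum and 2.93 without. The 6 genes with too few reads for a test were *CDH1* (9 counts over all libraries), *CDH3* (28), *CDH4* (69), *CDH6* (66), *CDH11* (52) and *CTNNA2* (5). A library with a count of 0 for such a gene may still hold up to 3 counts' worth of its transcript, by counting error alone.

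**Figure D1:**
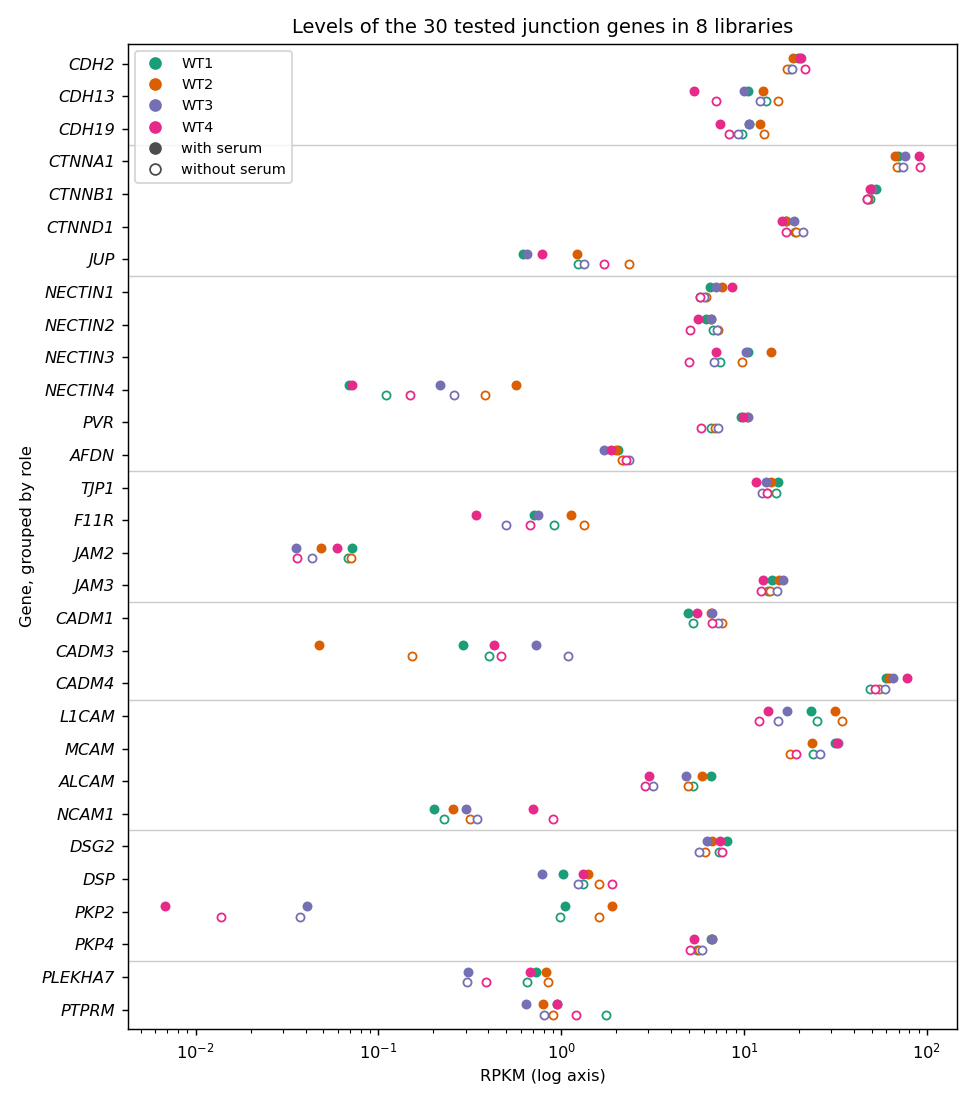
RPKM (log axis) of the 30 tested junction genes, grouped by role. Each point is 1 library, coloured by line, filled with serum and open without serum: open points lie to the right of filled ones for *JUP* and to the left for *PVR*, and *PKP2* splits by line, from 0.00685 RPKM in WT4 to 1.89 in WT2.

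Over all 17671 tested genes, serum-free libraries were set against those with serum, and 5 of the 30 junction genes passed an edgeR quasi-likelihood test at a Benjamini-Hochberg adjusted p under 0.05. This was 16.7% of the junction genes, below the 25.1% of all tested genes. *JUP* rose, in a background where 11.1% of genes rose, and *PVR*, *MCAM*, *NECTIN1* and *CADM4* fell, in a background where 14.0% fell. The remaining 25 did not pass. The median log2 fold change was -0.01 over the junction genes and 0.03 over all tested genes. Of all calls, 1957 were rises and 2477 falls, a split that turned to 2508 and 1843 under upper-quartile scaling.

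Both libraries of a line come from the same clone, so the fit was repeated with the line as a replicate block, in which each line is compared with itself. With the block 14 of 30 junction genes passed edgeR's test (46.7%), beside 45.7% of all tested genes. The 7 that rose were *JUP*, *CDH13*, *CTNND1*, *AFDN*, *CADM1*, *DSP* and *PTPRM* (background 23.2%), and the 7 that fell were *PVR*, *NECTIN1*, *NECTIN3*, *CADM4*, *MCAM*, *ALCAM* and *PKP4* (background 22.4%). Genes of higher GC content tended to higher log2 fold changes (Spearman's rho of 0.36 across 17425 genes, a description, since genes are not independent replicates). With a correction for GC content added to the block, 19 junction genes passed, 8 up and 11 down, where 46.1% of all genes passed, 21.7% up and 24.5% down. The 14 genes called with the block were among the 19. The correction moved the log2 fold change of *NECTIN1* from -0.32 to -0.54, of *CADM4* from -0.30 to -0.52 and of *CTNND1* from 0.14 to 0.26. It moved *PVR* from -0.61 to -0.70 and *MCAM* from -0.47 to -0.60. The values came closer to zero for *JUP* (from 1.02 to 0.79), *NECTIN3* (from -0.53 to -0.31) and *ALCAM* (from -0.32 to -0.17). The direction was the same in all 4 lines for 18 of the 30 junction genes, 9 higher and 9 lower without serum. The share of all tested genes with a common direction was not counted.

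**Figure D2:**
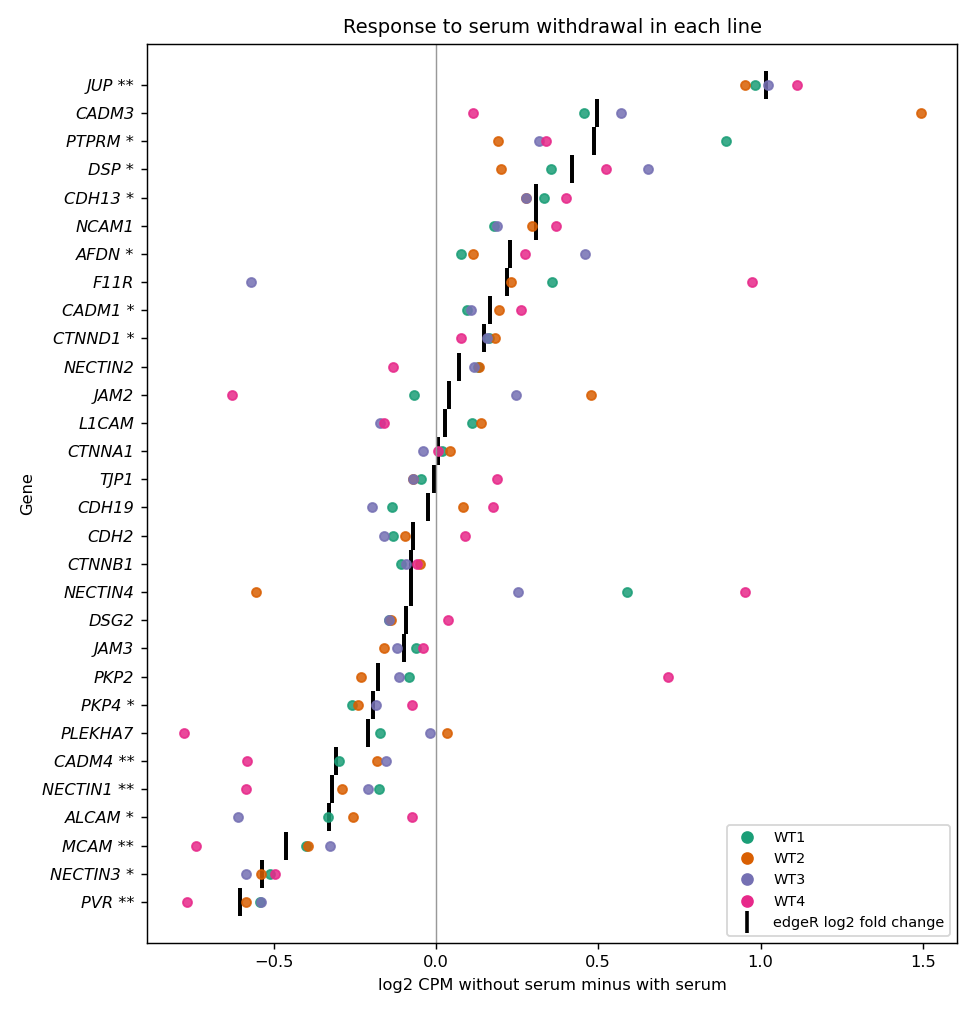
Difference in log2 CPM (counts relative to library size, prior count of 2) between the serum-free and the serum library of each line, with the edgeR log2 fold change as a black bar, for the 30 tested genes. Double asterisks mark the 5 genes that passed edgeR's test without the block and single asterisks the 9 that passed only with it: *JUP* lies near 1 in each line, and *PVR* between -0.77 and -0.54.

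Among cadherins, *CDH2*, *CDH13* and *CDH19* were expressed and none of them passed the test without the block. *CDH2* (ENSG00000170558, chr18:27932879-28177130 of GRCh38), which encodes N-cadherin, was at 19.6, 18.4, 20.4 and 20.3 RPKM in WT1, WT2, WT3 and WT4 with serum and at 17.9, 17.3, 18.3 and 21.5 without. The groups overlapped, and *CDH2* was lower without serum in 3 lines and higher in WT4. Its log2 fold change was -0.07 (standard error 0.08), which did not pass (Benjamini-Hochberg adjusted p = 0.558 by edgeR without and 0.307 with the block). With the block and without WT4 it was called (-0.13, edgeR's adjusted p = 0.0143). The *CDH1* transcript, encoding E-cadherin, had no read in 5 of the 8 libraries and at most 4 in the others.

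*CDH13* (ENSG00000140945, chr16:82626969-83800640) encodes T-cadherin, a cadherin held in the membrane by a lipid anchor. It was at 10.5, 12.6, 10.0 and 5.34 RPKM in WT1 to WT4 with serum and at 13.2, 15.3, 12.2 and 7.05 without. Every line was higher without serum, by 0.28 to 0.40 on the log2 scale, while the groups overlapped because WT4 was low in both conditions. The log2 fold change of 0.31 did not pass without the block (edgeR's adjusted p = 0.502) and passed with it (0.32, standard error 0.05, edgeR's adjusted p = 0.000198). With the block the call held without each line in turn. An annotated antisense gene shares 21.4% of the exon bases of *CDH13*, and the strand setting of the counting is not given in the sources used here. *CDH19*, a cadherin of the neural crest lineage, was at 7.35 to 12.2 RPKM with serum and 8.31 to 12.9 without, and did not pass (log2 fold change -0.02, edgeR's adjusted p = 0.939). With the block and the GC correction its sign turned and it passed (0.23, edgeR's adjusted p = 0.000696).

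Of the 4 tested catenins, *JUP* passed without the block, *JUP* and *CTNND1* with it, and *CTNNB1* and *CTNNA1* in neither fit. *CTNNB1*, which encodes β-catenin, was at 50.2 ± 1.79 RPKM with serum and 47.6 ± 0.985 without (SD, n = 4), and was lower without serum in all 4 lines by 0.05 to 0.11 on the log2 scale. This difference did not pass (log2 fold change -0.08, edgeR's adjusted p = 0.326 without and 0.213 with the block). *CTNNA1*, encoding αE-catenin, was at 75.7 ± 10.8 and 76.0 ± 10.4 RPKM (edgeR's adjusted p = 0.980). *CTNND1*, encoding p120-catenin, was at 17.2 ± 1.15 RPKM with serum and 19.0 ± 1.65 without and passed only with the block (0.14, edgeR's adjusted p = 0.0315). That call was lost without WT1, WT2 or WT3 (edgeR's adjusted p = 0.143 to 0.148) and held without WT4.

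*JUP* (ENSG00000173801, chr17:41754609-41786711) encodes plakoglobin, which sits in both adherens junctions and desmosomes, and its promoter letters are given above. With serum it was at 0.617, 1.22, 0.653 and 0.784 RPKM in WT1 to WT4, from 115, 395, 138 and 110 counts. Without serum it was at 1.23, 2.36, 1.34 and 1.70 RPKM, from 256, 891, 257 and 474 counts. All 4 serum-free libraries lay above all 4 serum libraries, although WT1 without serum (1.23) was close to WT2 with serum (1.22). *JUP* rose by 1.02 on the log2 scale (standard error 0.27, Benjamini-Hochberg adjusted p = 0.0222 by edgeR), and with the block its adjusted p was 6.39e-06. With the GC correction added to the block the log2 fold change was smaller, at 0.79 (edgeR's adjusted p = 5.13e-05). Without that correction the rise within WT1 to WT4 was 0.98, 0.95, 1.02 and 1.11. The call was lost without the serum library of WT1 or WT3, the serum-free library of WT2 or WT4, the lines WT1, WT3 or WT4, or both serum libraries of WT1 and WT2 (edgeR's adjusted p = 0.0514 to 0.0898). With the block it held without each line in turn. No exon base of *JUP* is shared with another annotated gene.

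Of the 4 nectins, *NECTIN1* passed without the block, and *NECTIN1* and *NECTIN3* with it. *NECTIN1* (ENSG00000110400, chr11:119638098-119729200) encodes the nectin at the centre of the study. It was at 6.50, 7.61, 7.02 and 8.62 RPKM in WT1 to WT4 with serum and at 5.76, 6.22, 6.07 and 5.74 without. The groups did not overlap, and the spread between lines was wider with serum (7.44 ± 0.911, SD, n = 4) than without (5.95 ± 0.237). *NECTIN1* fell by 0.32 on the log2 scale (standard error 0.09, Benjamini-Hochberg adjusted p = 0.0260 by edgeR), with differences of -0.17, -0.29, -0.21 and -0.59 within WT1 to WT4. With the block the adjusted p was 0.00219. The call was lost without the serum library of WT2, any single serum-free library, the lines WT1, WT2 or WT3, or both serum libraries of WT1 and WT2, and under upper-quartile scaling (edgeR's adjusted p = 0.0532 to 0.0991). With the block it held without each line in turn, and without WT4 the blocked fold change was -0.23.

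*NECTIN3* (ENSG00000177707, chr3:111071816-111194170), whose product binds *NECTIN1*'s across the junction, was at 10.5, 14.1, 10.3 and 7.02 RPKM in WT1 to WT4 with serum and at 7.39, 9.68, 6.86 and 4.98 without. Each line was lower without serum by a similar amount, from -0.59 to -0.50 on the log2 scale, but the groups overlapped because WT2 was high and WT4 low in both conditions. The log2 fold change of -0.54 did not pass without the block (edgeR's adjusted p = 0.147) and passed with it (-0.53, standard error 0.06, edgeR's adjusted p = 3.89e-06). *NECTIN2* was at 6.23 ± 0.475 RPKM with serum and 6.55 ± 0.995 without (SD, n = 4), higher in 3 lines and lower in WT4 (log2 fold change 0.07, edgeR's adjusted p = 0.705). Its sign turned with the block and GC correction (-0.16, edgeR's adjusted p = 0.0417). *NECTIN4* was low, at 0.0690 to 0.568 RPKM from 7 to 129 counts, and was at 0.231 ± 0.235 RPKM with serum and 0.225 ± 0.123 without.

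*PVR* (ENSG00000073008, chr19:44643910-44666162), the nectin-like poliovirus receptor that binds *NECTIN3*'s product on neighbouring cells, had the lowest adjusted p of the junction genes. It was at 9.61, 10.4, 10.5 and 9.88 RPKM in WT1 to WT4 with serum and at 6.59, 6.93, 7.21 and 5.81 without. The lowest serum library (9.61) was well above the highest serum-free library (7.21). *PVR* fell by 0.61 on the log2 scale (standard error 0.08, Benjamini-Hochberg adjusted p = 0.00146 by edgeR), by 0.54, 0.59, 0.54 and 0.77 within WT1 to WT4. It passed in all 13 fits that left out a library, a line or both serum libraries of WT1 and WT2, with adjusted p up to 0.0222, and with the block (1.92e-06). Other annotated genes share 20.6% of its exon bases. *AFDN*, encoding afadin, was at 1.90 ± 0.150 RPKM with serum and 2.23 ± 0.0949 without (SD, n = 4), and the lowest serum-free library (2.14) was above the highest serum library (2.05). It did not pass without the block (log2 fold change 0.23, edgeR's adjusted p = 0.0620) and passed with it (0.0240), except without WT3 (0.205). Without the block it passed under upper-quartile scaling (edgeR's adjusted p = 0.0283) and with at least 10 counts in every library (0.0477).

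The make-up of each family was read from shares of summed RPKM, which compare genes per length. *CDH2* made up 50.4% ± 7.92 of the RPKM of the 8 cadherins with serum and 46.5% ± 8.57 without (SD, n = 4), a difference that did not pass a two-sided exact permutation test (p = 0.486, where 4 against 4 libraries allow no p under 0.0286). Within lines, exact permutation gave p = 0.125, the smallest that 4 lines allow. The difference of -3.95 points moved to -0.293 without the serum and to -7.88 without the serum-free library of WT4, and to -6.57 and -1.09 without those of WT2. *CDH13* held 23.9% and 28.9%, *CDH19* 25.6% and 24.4%, and the other 5 cadherins together the small remainder. *NECTIN1* made up 31.0% ± 6.44 of the RPKM of the 4 nectins with serum and 30.3% ± 4.07 without (exact permutation p = 0.8286, or 1 within lines). The summed RPKM of the nectins was 24.4 ± 3.19 with serum and 19.95 ± 3.09 without. The share of *NECTIN2* ranged from 22.8% to 27.3% with serum and from 30.7% to 35.1% without, so its groups did not overlap. This was noticed in the data and was not tested. The *NECTIN2* transcript itself did not pass (log2 fold change 0.07, edgeR's adjusted p = 0.705), while *NECTIN1* and *NECTIN3* were lower without serum in every line. No share was corrected for GC content. With the block and the GC correction, the log2 fold changes of *NECTIN1*, *NECTIN2* and *NECTIN3* were -0.54, -0.16 and -0.31. *NECTIN3* held 42.4% ± 6.79 and 35.8% ± 4.33.

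**Figure D3:**
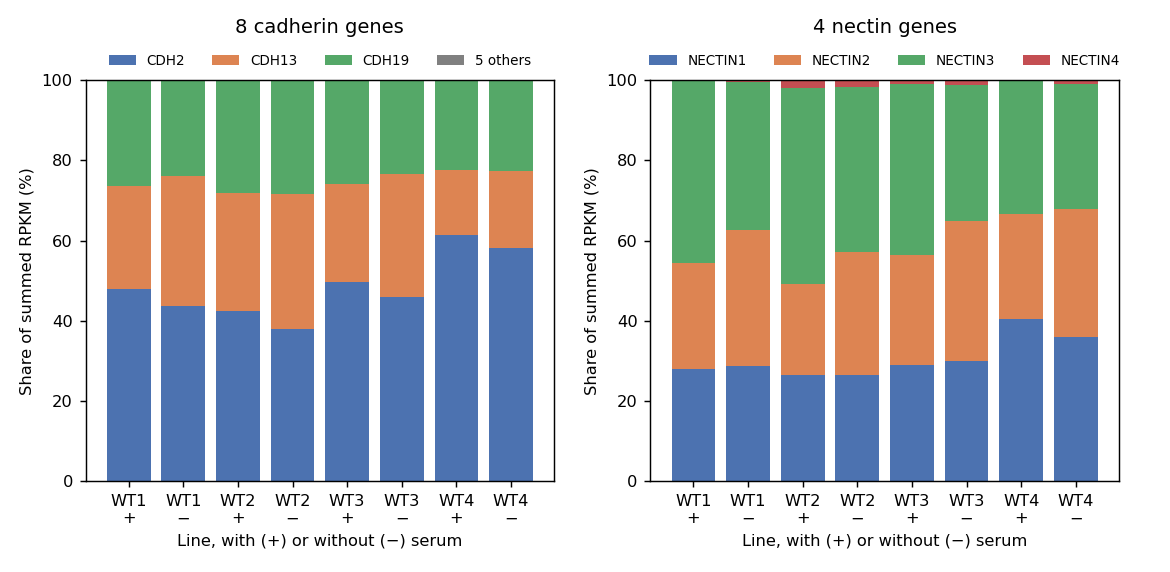
Share (%) of each gene in the summed RPKM of the 8 cadherins (left) and the 4 nectins (right), with a bar for each library, marked + with and − without serum. *CDH2* takes 37.9% to 61.4% of each cadherin bar and is largest in WT4, and *NECTIN2* takes more of each serum-free bar than of the serum bar of the same line.

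*TJP1*, which encodes the scaffold ZO-1 of tight and adherens junctions, was at 13.6 ± 1.54 RPKM with serum and 13.5 ± 0.966 without (SD, n = 4, edgeR's adjusted p = 0.975). The JAM genes encode immunoglobulin receptors that bind ZO-1. *JAM3* was at 14.7 ± 1.61 and 13.7 ± 1.13 RPKM and was lower in all 4 lines, by 0.04 to 0.16 on the log2 scale (log2 fold change -0.10, edgeR's adjusted p = 0.468 without and 0.172 with the block). With the GC correction added to the block it was called (-0.12, edgeR's adjusted p = 0.0354), as it was with the block and without WT4 (-0.12, edgeR's adjusted p = 0.0490). *F11R* was at 0.341 to 1.33 RPKM and *JAM2* at 0.0354 to 0.0713 RPKM, from 9 to 32 counts, and their differences had no common sign over the lines. Other annotated genes share 36.6% of the exon bases of *F11R* and 35.6% of those of *JAM3*.

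*CADM4* (ENSG00000105767, chr19:43622368-43641984), an adhesion molecule of the nectin-like group, was the highest immunoglobulin receptor gene among those described here. It was at 59.9, 62.3, 65.6 and 77.9 RPKM in WT1 to WT4 with serum and at 48.6, 54.9, 58.9 and 52.0 without. The groups did not overlap, but WT1 with serum (59.9) and WT3 without (58.9) were close. *CADM4* fell by 0.31 on the log2 scale (standard error 0.10, Benjamini-Hochberg adjusted p = 0.0397 by edgeR without and 0.00211 with the block), with a larger difference in WT4 (-0.58) than in WT1 (-0.30), WT2 (-0.18) and WT3 (-0.15). The call was lost without the serum library of WT2 or WT3, the serum-free library of WT1, WT2 or WT4, any single line, or both serum libraries of WT1 and WT2, and under upper-quartile scaling (edgeR's adjusted p = 0.0563 to 0.118). With the block it held without each line in turn, and without WT4 the blocked fold change was -0.21. *CADM1* was higher in all 4 lines (5.94 ± 0.841 and 6.67 ± 0.997 RPKM) and passed only with the block (0.16, edgeR's adjusted p = 0.0304), a call lost without WT1, WT2 or WT3 (0.0667 to 0.138). *CADM3*, at 0.0475 to 1.09 RPKM, did not pass (0.50, edgeR's adjusted p = 0.688 without and 0.0529 with the block), but was called with the block and without WT4 (0.78, edgeR's adjusted p = 0.0149).

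*MCAM* (ENSG00000076706, chr11:119308529-119317130) encodes CD146, a melanoma cell adhesion molecule. It was at 31.6, 23.4, 32.4 and 32.2 RPKM in WT1 to WT4 with serum and at 23.9, 17.8, 25.8 and 19.3 without. WT2 was the lowest line in each condition, and its serum library (23.4) fell within the range of the serum-free libraries, so the groups overlapped. *MCAM* fell by 0.46 on the log2 scale (standard error 0.14, Benjamini-Hochberg adjusted p = 0.0408 by edgeR), by 0.40, 0.39, 0.33 and 0.74 within WT1 to WT4. With the block the adjusted p was 5.43e-05. The call was lost without the serum library of WT1, WT3 or WT4, the serum-free library of WT1, WT2 or WT4, the lines WT1, WT3 or WT4, or both serum libraries of WT1 and WT2, and under upper-quartile scaling (edgeR's adjusted p = 0.0580 to 0.193). With the block it held without each line in turn.

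*ALCAM*, another adhesion molecule of melanoma cells, was at 6.62, 5.91, 4.84 and 3.003 RPKM in WT1 to WT4 with serum and at 5.25, 4.95, 3.17 and 2.85 without. It was lower in every line, and it passed only with the block (-0.32, edgeR's adjusted p = 0.00444, against 0.434 without the block). *L1CAM*, known from axon growth and tumour cell invasion, had no common sign over the lines (21.3 ± 7.76 and 21.7 ± 10.1 RPKM, SD, n = 4, edgeR's adjusted p = 0.969). The sign of its log2 fold change was positive without the block (0.03) and negative with it (-0.02), and with the GC correction it passed (-0.23, edgeR's adjusted p = 0.00152). *NCAM1*, the neural cell adhesion molecule, was low, at 0.203 to 0.900 RPKM. All 4 lines were higher without serum, by 0.18 to 0.37 on the log2 scale, which did not pass (edgeR's adjusted p = 0.711 without and 0.0872 with the block).

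Desmosomes anchor intermediate filaments, and their genes were expressed at modest levels. *DSG2*, a desmosomal cadherin gene, was at 7.11 ± 0.804 RPKM with serum and 6.66 ± 0.929 without (SD, n = 4, log2 fold change -0.09, edgeR's adjusted p = 0.588), and was called only with the block and without WT4 (-0.14, edgeR's adjusted p = 0.0211). *DSP*, encoding the linker desmoplakin, was at 1.03, 1.39, 0.782 and 1.31 RPKM in WT1 to WT4 with serum and at 1.31, 1.60, 1.23 and 1.89 without. Each line was higher without serum, and *DSP* passed with the block (0.43, edgeR's adjusted p = 0.00111) but not without it (0.42, 0.149). *PKP4*, encoding a p120-related protein, was at 6.32 ± 0.649 and 5.53 ± 0.331 RPKM and passed with the block (-0.19, edgeR's adjusted p = 0.0169). That call was lost without WT1 or WT2 (both 0.103). Without the block it passed when WT4 or its serum library was left out (edgeR's adjusted p = 0.0134 and 0.0101). Of the 2 junction linkers, *PTPRM*, a receptor phosphatase that binds its own kind across the cell border, was higher in all 4 lines, from 0.19 in WT2 to 0.89 in WT1 on the log2 scale, and passed only with the block (0.44, edgeR's adjusted p = 0.00711). Without WT1 it did not pass (0.28, edgeR's adjusted p = 0.0872). *PLEKHA7*, which ties p120-catenin to microtubules, was at 0.634 ± 0.226 and 0.547 ± 0.247 RPKM (edgeR's adjusted p = 0.727), and it passed with the block and the GC correction (-0.36, edgeR's adjusted p = 0.0318).

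The lines were also compared with one another. In edgeR's test of the 3 line coefficients, adjusted over all tested genes with condition in the model, 20 of 30 junction genes passed (66.7%), beside 22.9% of all tested genes. The test of condition in the same model is the fit with the block, in which 14 of 30 passed. The 2 libraries of a line, 1 per condition, stand for its spread. The mean RPKM of the highest line was 1.26 to 170 times that of the lowest line over these 20 genes, with a median of 1.96. Of the 20 genes, 8 were also called between conditions in that model (*CDH13*, *JUP*, *NECTIN3*, *CADM1*, *MCAM*, *ALCAM*, *DSP* and *PTPRM*) and 12 were not. Without the block, where the spread between lines is part of the error, *JUP* and *MCAM* were. Over all tested genes, 45.7% were called between conditions with the block and 25.1% without it. These shares were not counted among all genes that differed between lines, so no comparison with them is made. WT4 was the lowest line for 9 genes and the highest for 3, and WT2 was the highest for 11. The lowest and highest lines were not counted over all genes that differed between lines, so this may not be particular to junction genes. The deposited count tables of the WT4 libraries bear a different name, and the identity of WT4 rests on the labels.

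*PKP2* (ENSG00000057294, chr12:32790755-32896777), encoding the desmosomal plaque protein plakophilin 2, had the largest difference between lines. It was at 1.04, 1.89, 0.0409 and 0.00685 RPKM in WT1 to WT4 with serum, from 405, 1279, 18 and 2 counts. Without serum it was at 0.984, 1.61, 0.0375 and 0.0138 RPKM, from 427, 1267, 15 and 8 counts. WT1 and WT2 were thus far above WT3 and WT4 in both conditions (edgeR's adjusted p = 1.94e-10 between lines), and the level in WT4 rests on few counts. The condition made no called difference (log2 fold change -0.18, edgeR's adjusted p = 0.951). Its sign turned without the serum libraries of WT1 and WT2, which leaves WT3 and WT4 alone with serum (4.67, edgeR's adjusted p = 0.310).

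*NCAM1*, *L1CAM*, *ALCAM* and *MCAM* all differed between lines. *NCAM1* was highest in WT4 (a line mean of 0.798 RPKM, against 0.216 to 0.323 in the others, edgeR's adjusted p = 4.52e-06 between lines). *L1CAM* was highest in WT2 (32.9 RPKM) and lowest in WT4 (12.8, edgeR's adjusted p = 2.88e-07). *ALCAM* was lowest in WT4 (2.93 RPKM) and highest in WT1 (5.93, edgeR's adjusted p = 5.02e-05). *CDH13* was likewise lowest in WT4, at 6.19 RPKM against 11.1 to 14.0 in the others (edgeR's adjusted p = 3.52e-07), as was *NECTIN3*, at 5.998 against 8.58 to 11.9 (4.31e-06). *CTNNA1* was highest in WT4, at 91.1 RPKM against 67.6 to 74.7 (edgeR's adjusted p = 0.000978). The genes that did not pass between lines were *CDH2*, *CTNNB1*, *CTNND1*, *NECTIN1*, *PVR*, *AFDN*, *TJP1*, *JAM2*, *CADM4* and *PKP4*, whose highest line mean was 1.04 to 1.77 times the lowest.

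**Figure D4:**
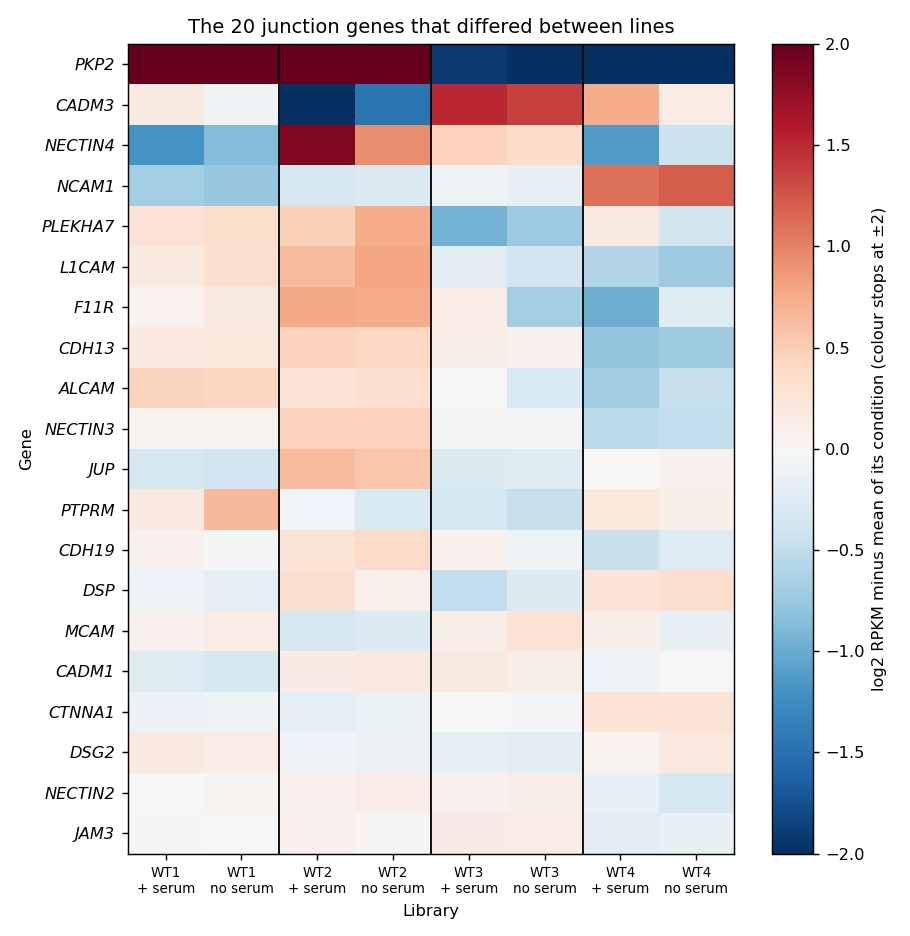
Log2 RPKM minus the mean of its condition, in each of the 8 libraries, for the 20 genes that differed between lines, with red above and blue below that mean and colours that stop at ±2. Both libraries of a line mostly share a colour: *PKP2* is dark red in WT1 and WT2 and dark blue in WT3 and WT4, and *NCAM1* is red in WT4.

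Other genes of cell junctions were counted from 9 lists with 140 genes, of which 100 were tested. Of these, 24 passed edgeR's test without the block, 13 up and 11 down, or 24.0%, beside the 25.1% of all tested genes named above, and 57 passed with it, 36 up and 21 down, or 57.0%, beside 45.7% of all tested genes (23.2% up and 22.4% down). Their median log2 fold change was 0.08. None of the 6 tested cadherins beyond the 36 genes passed edgeR's test without or with the block, DESeq2 or voom, and 1 of them had an unadjusted p under 0.05 in either edgeR fit. *CDH8*, at 0.0208 to 0.0529 RPKM with serum and 0.0578 to 0.0697 without, passed with the block and the GC correction (0.90, edgeR's adjusted p = 0.0274). Of 18 atypical cadherins and protocadherins, 5 rose and 1 fell without the block, where 11.1% of all tested genes rose and 14.0% fell, and 10 rose and 1 fell with it. Their median log2 fold change was 0.46 without and 0.48 with the block. The counts of the other lists below are without the block unless stated, against the same shares, and those with the block are against 23.2% up and 22.4% down. *CELSR2*, which encodes a 7-pass cadherin of planar polarity, rose from 2.21 ± 0.204 to 3.57 ± 0.167 RPKM (SD, n = 4, log2 fold change 0.69, edgeR's adjusted p = 0.00112), and *CELSR3* rose by 0.55 on the log2 scale (0.00538).

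Of 11 adherens junction linkers, 1 rose and 3 fell, and with the block 3 rose and 5 fell. *ACTN1*, encoding the actin crosslinker α-actinin 1, fell from 37.6 ± 0.912 to 28.7 ± 0.949 RPKM (SD, n = 4, log2 fold change -0.39, edgeR's adjusted p = 0.00195), and *LIMA1*, encoding the α-catenin partner EPLIN, fell from 28.4 ± 7.62 to 15.4 ± 2.66 RPKM (-0.88, 0.0151). Of 19 tight junction genes, 1 rose (*CLDN15*, 0.40, edgeR's adjusted p = 0.0153), and with the block 7 rose and 3 fell. Of 5 tested desmosomal genes, 4 rose with the block and both genes called without it rose: *PKP3*, encoding plakophilin 3, from 6.59 ± 0.465 to 9.68 ± 1.09 RPKM (0.55, edgeR's adjusted p = 0.00388), and *PPL*, encoding periplakin, by 0.76 (0.0355). Of 9 gap junction genes, *PANX2* (0.75, edgeR's adjusted p = 0.0105) and *GJA3* (0.59, 0.0175) rose and 1 fell, and with the block 3 rose and 4 fell. For each wider gene named up to here, the serum and serum-free libraries did not overlap. These genes were picked by small p, or for *CDH8* after its values were seen, so this is not a separate result. The share of all tested genes without overlap was not counted.

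Of 10 other immunoglobulin adhesion genes, *EMB*, encoding embigin, alone passed without the block, and 5 passed with it (3 up and 2 down). *EMB* fell from 16.5 ± 4.34 to 10.1 ± 1.96 RPKM (SD, n = 4, log2 fold change -0.72, edgeR's adjusted p = 0.0456), with overlapping groups because of a low serum library in WT4 (10.2). Of 8 repressors of *CDH1* transcription, *TCF4* alone passed without the block, at 0.557 ± 0.0357 and 0.744 ± 0.0440 RPKM (0.42, edgeR's adjusted p = 0.00767), and 4 passed with it (3 up and 1 down). With the block *SNAI2* (1.40, edgeR's adjusted p = 0.000251) and *TWIST1* (0.51, 0.000223) rose and *TCF3* fell (-0.23, 0.0104). *SNAI2* was low, at 0.178, 0.00928, 0.142 and 0.837 RPKM in WT1 to WT4 with serum and at 0.491, 0.0479, 0.352 and 2.01 without, and was higher without serum in every line. Of 14 junction kinases, phosphatases and turnover genes, 1 rose and 4 fell, and with the block 3 rose and 5 fell. Among those that fell were *RAP1A* (-0.34, edgeR's adjusted p = 0.00914) and *RAP1B* (-0.38, 0.0143), which encode small GTPases of cadherin adhesion. All of the wider genes named here except *CLDN15* (0.19, edgeR's adjusted p = 0.0761) passed with the block and the GC correction. In that fit the rises were smaller than with the block alone for *CELSR2* (0.46), *CELSR3* (0.32), *PKP3* (0.23), *PPL* (0.54), *PANX2* (0.44) and *TWIST1* (0.34). The falls were smaller for *LIMA1* (-0.73), *EMB* (-0.49), *RAP1A* (-0.16) and *RAP1B* (-0.19). Changes were larger for *CDH8* (0.90), *ACTN1* (-0.52), *TCF4* (0.59), *SNAI2* (1.48) and *TCF3* (-0.48), and *GJA3* was at 0.60.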

How the data were processed

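RNA was measured in 8 libraries, from 4 A375 lines with and without serum. Total RNA was depleted of ribosomal RNA and sequenced as paired ends. The authors deposited counts, whole numbers of reads per gene that were not normalized, and the submitters' processing notes name cutadapt, TopHat2 2.0.11, HTSeq and GRCh38. The annotation release and strand setting are not given in the sources used here, and the study's methods name another build and Cufflinks for its own values. The rows for reads without a gene and unaligned reads are listed as 0. Gene counts were 29759279 to 73341551 per library, and their number sets the precision for low genes. Intervals and floors cover counting error only.

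Of 58051 genes, 55604 were given a symbol through their Ensembl identifier, and positions are from RefSeq on GRCh38.p14. RPKM rests on the merged exon length of a gene and on library sizes scaled by TMM. Exon length, exon overlap and GC content came from GENCODE lifted to GRCh37, another build. Genes were filtered with filterByExpr and tested in R 4.3.3 with edgeR 4.0.16 (TMM, robust quasi-likelihood fit, Benjamini-Hochberg adjustment over 17671 genes, threshold 0.05), without a block. Lines were compared by an F-test with condition in the model, and shares by exact permutation. No set test was run. Alternatives were the line as a replicate block, with and without a lowess correction for GC content, DESeq2 1.42.0, voom in limma 3.58.1, RLE and upper-quartile scaling, other filters (none, or at least 10 counts in every library), and each library or line left out. The blocked fits without a line and the fit without 2 serum libraries were chosen after seeing the data. Libraries of a line come from the same clone, and their deviations from the condition means correlated across genes at 0.40 to 0.60, against at most 0.13 in the 12 pairs of different lines. Scripts were tested on simulated data.

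Every one of the 36 genes is named, and of each wider list the 2 genes with the smallest p among those that passed, except a gene that is not reported here. The markers fall outside this rule, and *CDH8*, *SNAI2*, *TWIST1* and *TCF3* were added after their values were seen. The 36 genes and all lists were chosen with earlier results of these data known.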

Additional observations from a re-analysis of the deposited data

Results flagged for a closer look

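In each condition, the RPKM of the 30 tested genes and the shares of *CDH2* and *NECTIN1* were screened for 1 line far from the other 3, with Dixon's test for 4 values (the gap to the closest value over the whole range). Of 64 such sets of 4 values, 3 had a line that stood apart, and chance gives about 1 in 20, or 3.2. *MCAM* with serum was at 23.4 RPKM in WT2 and at 31.6 to 32.4 in the other lines. *NCAM1* without serum was at 0.900 RPKM in WT4 and at 0.230 to 0.344 in the others. *PKP4* with serum was at 5.35 RPKM in WT4 and at 6.59 to 6.68 in the others.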

How the results depend on the processing

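Of the 5 calls made without the line as a replicate block, all were also made by DESeq2, voom, RLE scaling and the fit with no filter, and upper-quartile scaling called 3 junction genes (*JUP*, *PVR* and *AFDN*). With the paired fit, which has the line as a replicate block, 8067 genes, 14 junction genes and 57 wider junction genes passed, and with the GC correction added 8154 genes and 19 junction genes. The block ended none of the 5 calls. When each library or line was left out in turn, with or without the block, 1589 to 8938 genes and 1 to 18 junction genes passed. Without the serum libraries of WT1 and WT2, 1098 genes and 1 junction gene (*PVR*) passed. The counts between lines kept within 1.5 times their values in all alternatives tried. The share of *NECTIN1* moved by 0.801 points, and thus the other way, with CPM in place of RPKM, and by -2.61 to 2.47 points when a library was left out. Signs turned only for log2 fold changes that were not called without the block. In the block with GC correction, the values were 0.23 for *CDH19*, -0.015 for *CTNNA1*, -0.16 for *NECTIN2*, 0.023 for *NECTIN4*, 0.033 for *TJP1*, -0.23 for *L1CAM* and 0.012 for *DSG2*. With the block alone *NECTIN4* was at 0.17 and *L1CAM* at -0.019, and with voom they were at 0.17 and -0.029. Upper-quartile scaling gave 0.040 for *CDH19* and 0.059 for *TJP1*, at least 10 counts in every library gave 0.0091 for *TJP1*, and *CTNNA1* was at -0.0055 with DESeq2 and with RLE scaling. Without the serum libraries of WT1 and WT2, the values were 0.16 for *CDH19*, -0.14 for *CTNNA1*, 0.61 for *NECTIN4*, 0.12 for *TJP1*, -0.16 for *CADM3*, 0.041 for *ALCAM*, -0.15 for *NCAM1*, 4.67 for *PKP2* and 0.17 for *PLEKHA7*. Leaving out a library or a line gave ranges of -0.16 to 0.070 for *CDH19*, -0.094 to 0.10 for *CTNNA1*, -0.48 to 0.90 for *NECTIN4*, -0.072 to 0.057 for *TJP1*, -0.083 to 0.51 for *F11R*, -0.17 to 0.26 for *JAM2*, -0.13 to 1.08 for *CADM3*, -0.29 to 0.27 for *L1CAM*, -0.29 to 0.82 for *NCAM1* and -1.13 to 0.86 for *PKP2*. The cause of these moves was not tested, beyond the fewer libraries in the fits that leave some out. Depth limits *JAM2*, *NECTIN4* and *PKP2*, with counts as low as 9, 7 and 2 in a library.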

Other observations

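Among genes that were not part of the junction comparison, *CD96*, which encodes a lymphocyte receptor for NECTIN1 and PVR, was expressed in all 8 libraries. It was at 37.3, 42.7, 33.2 and 29.5 RPKM in WT1 to WT4 with serum and at 31.6, 36.2, 29.9 and 29.7 without, above *NECTIN1* and *PVR* themselves in every library. The other 6 lymphocyte genes looked at (*PTPRC*, *CD3D*, *CD3E*, *CD226*, *TIGIT* and *CRTAM*) were between 0 and 0.0815 RPKM. No exon base of *CD96* is shared with another annotated gene, and its log2 fold change of -0.16 did not pass without the block (edgeR's Benjamini-Hochberg adjusted p = 0.336), passed with it (-0.15, edgeR's adjusted p = 0.0425) and did not pass with the GC correction added (-0.063, edgeR's adjusted p = 0.235). The source of its reads was not tested. This gene was picked out after its values were seen.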
